A study of Mus musculus with 90 samples.

Results

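Prdm1, Maf, Irf4, Batf, Bach2 and Bcl6 encode 6 transcription factors that set how far an activated T cell differentiates. They were taken as the rows of those names in the combined raw count table of mouse T cells, 6 of the 23420 genes in that table, and their counts are given relative to the library total, in the counts-per-million unit (CPM). All 6 had counts in both experiments of the study. In the first experiment, regulatory T cells (Tregs) from wild-type mice were sorted by whether they expressed interleukin-10 (IL10 Tregs), Ebi3, a subunit of interleukin-35 (Ebi3 Tregs), or neither (labelled DoubleNeg, DN). Each subset came from naive mice, from the non-draining lymph node (ndLN) and from the tumour (tumour-infiltrating lymphocytes, TIL), and effector T cells (Teff) from naive mice completed 10 groups of 3 libraries. In the second, CD8+ T cells were taken from the non-draining lymph node (NDLN) and from tumours, where they were sorted by the inhibitory receptors PD-1 and TIM-3 into NEG (PD-1-TIM-3-), INT (intermediate PD-1, TIM-3-), SP (high PD-1, TIM-3-) and DP (high PD-1, TIM-3+) cells. Their hosts lacked IL-10 (Il10), IL-35 (Ebi3L) or both (DKO) in Tregs only, or were the yfp controls. That gave 20 groups, of 3 libraries for yfp, 4 for DKO, 3 for Ebi3L and 2 for Il10. The CD8 cells themselves were not the target of the deletions, so the deleted genes cannot be checked in these libraries. Strain, age, tumour line and Cre driver are not given in the labels, and nothing there says that replicates came from separate animals, and every p-value here reflects how far these libraries vary, which may be technical.

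Blimp-1, the product of Prdm1, is a zinc finger repressor that drives terminal differentiation of lymphocytes. In Tregs it marks effector cells and is needed for their IL-10, and in exhausted CD8+ cells it accompanies high inhibitory receptor expression. c-Maf, a large basic leucine zipper factor, binds and activates the Il10 gene. Irf4 and Batf act as a pair: Batf, with a Jun partner, recruits Irf4 to composite AP-1 and interferon response elements, and both are induced by antigen receptor signalling. Bach2 pairs with small Maf proteins, occupies AP-1 sites and keeps T cells in a resting or memory-like state. Bcl6 drives follicular helper cells and memory precursors, and Bcl6 and Blimp-1 repress each other. The series therefore lets the differentiating factors and their antagonists be followed across Treg subsets, sites and stages of CD8 exhaustion.

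In mm10, with GENCODE M21 gene models, Prdm1 lies at chr10:44437177-44528501 on the minus strand, Maf at chr8:115682942-115707794 on the minus strand, Irf4 at chr13:30749226-30766976 on the plus strand, Batf at chr12:85686669-85709087 on the plus strand, Bach2 at chr4:32238804-32586108 on the plus strand and Bcl6 at chr16:23965052-23988852 on the minus strand. Other annotated genes overlap Bach2 (Bach2it1, Bach2os and Gm24371), Maf (Gm15655) and Bcl6 (Gm37419). The strand setting of the counting is not given in the sources used here and none of these has a row in the table, so reads of an overlapping gene cannot be told apart from those of the member.

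RefSeq start sites with sequence (GRCm38.p6) were found for 5 of the 6 genes. The 250 bases before the start are printed for 3 of these, Prdm1 and its antagonists Bach2 and Bcl6, each on the strand of the gene. The Prdm1 window is chr10:44458749-44458998 on the minus strand, the Bach2 window chr4:32417185-32417434 on the plus strand and the Bcl6 window chr16:23988853-23989102 on the minus strand. The Prdm1 and Bach2 windows lie inside the longest gene models above, before an inner start site. Capitals mark matches to the AP-1 element TGANTCA (Prdm1) or to the spaced palindrome TTCNNNGAA (Bach2 and Bcl6). Both strands were searched, and both motifs read as themselves on the opposite strand.
Prdm1: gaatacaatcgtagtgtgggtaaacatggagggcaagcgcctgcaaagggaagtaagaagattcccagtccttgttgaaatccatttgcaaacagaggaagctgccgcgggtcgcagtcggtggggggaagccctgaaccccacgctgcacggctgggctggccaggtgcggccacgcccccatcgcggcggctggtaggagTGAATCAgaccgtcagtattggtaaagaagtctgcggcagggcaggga
Bach2: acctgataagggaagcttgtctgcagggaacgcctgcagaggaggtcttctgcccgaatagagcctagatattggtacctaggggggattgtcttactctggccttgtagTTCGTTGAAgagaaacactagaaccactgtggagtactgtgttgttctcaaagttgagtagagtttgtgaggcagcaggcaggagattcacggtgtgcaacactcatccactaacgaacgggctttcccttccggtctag
Bcl6: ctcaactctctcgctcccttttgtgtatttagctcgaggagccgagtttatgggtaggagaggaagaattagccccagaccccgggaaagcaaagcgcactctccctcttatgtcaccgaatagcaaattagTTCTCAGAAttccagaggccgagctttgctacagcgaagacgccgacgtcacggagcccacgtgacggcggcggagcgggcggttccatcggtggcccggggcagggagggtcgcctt
The Prdm1 window holds TGAATCA, beginning 48 bases before the start. An AP-1 match is found in 6.75% of all 32851 windows of that length. TTCGTTGAA begins 140 bases before the Bach2 start and TTCTCAGAA 118 bases before the first of the Bcl6 starts, and the palindrome is found in 7.02% of windows. The windows of Irf4 and Batf, not printed, held no match to either motif. Each match is a description of the letters and not of binding.

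Library totals, with M for mega, ran from 9.73 to 20.2 M counts in the Treg experiment (median 15.1 M counts) and from 19.2 to 47.7 M counts in the CD8 experiment (median 26.2 M counts), so a floor of 3 counts stood at 0.0629 to 0.308 CPM. The 2 experiments used different versions of a SMART-Seq kit and levels are compared only within each, and within a gene only, since CPM does not correct for gene length. Summed CD8 T cell markers (Cd8a, Cd8b1) followed the sort. They were at most 43.2 CPM in the Treg experiment and 1428 to 4085 CPM in the CD8 experiment. Summed CD4 and Treg markers were 1149 to 1911 CPM in the 27 Treg libraries and 373 to 591 CPM in Teff. In the CD8 experiment the CD4 and Treg sum (Cd4, Foxp3, Il2ra and Ikzf2) was 10.9 to 438 CPM. Its values in SP (232 to 438 CPM) and DP cells (165 to 432 CPM) overlapped those of Teff. Of genes of other cells that also use these factors, the B cell gene Pax5 was at 0 in all 90 libraries, and the plasma cell gene Tnfrsf17 was at 0 in all 30 libraries of the Treg experiment. The whole lists were not at 0: in the 27 Treg libraries the 8 B cell markers summed to 18.03 to 102 CPM, mostly Cd79b, and the 5 plasma cell markers to 164 to 353 CPM, mostly Xbp1. The plasma cell genes Sdc1 and Mzb1 were at 0 in naive and ndLN DN Tregs, while Sdc1 averaged 1.11 and 1.65 CPM in naive and ndLN IL10 Tregs and 0.913 and 0.318 CPM in the Ebi3 Tregs, and Mzb1 at most 0.754 CPM. Their part in the results was not tested. Library 3 of ndLN Ebi3 Tregs stood apart by summed myeloid markers of 211 CPM against 3.14 and 9.78 CPM in its group. In bulk samples, fewer cells of a type and less RNA per cell cannot be told apart.

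In naive mice, DN Tregs differed from Teff cells in 3 of the 6 genes, against 12.2% of all 12907 genes tested (edgeR quasi-likelihood test, Benjamini-Hochberg adjusted p under 0.05, the call used throughout). All 3 were activating factors and all 3 were higher in the Tregs. Maf was at 3.48, 0.103 and 1.56 CPM in Teff and at 17.7, 4.36 and 20.9 CPM in DN Tregs, Irf4 at 15, 10.17 and 14.8 against 28.4, 66.9 and 41.5 CPM, and Batf at 70.4, 78.3 and 79.4 against 141, 116 and 131 CPM. In each of these the lowest Treg library was above the highest Teff library. The log2 fold changes were 2.99 ± 0.40 (SE) for Maf, with an edgeR adjusted p of 7.16e-06, 1.72 ± 0.26 for Irf4 (adjusted p = 2.83e-05) and 0.80 ± 0.12 for Batf (adjusted p = 2.7e-05). Prdm1, at 8.93, 9.97 and 19.5 CPM in Teff and 1.83, 6.93 and 18.9 CPM in DN Tregs, Bach2 and Bcl6 did not pass the test.

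Among Tregs of naive mice, cytokine-expressing cells carried far more Prdm1 and Maf, more Irf4 and Batf, and less Bach2 than DN Tregs. IL10 Tregs passed the test in 5 of the 6 genes against DN Tregs, where 17.8% of all genes did. Ebi3 Tregs passed in the same 5, where 12.8% of all genes did. Bcl6 was the exception in both comparisons.

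Prdm1 was at 1.83, 6.93 and 18.9 CPM in DN Tregs, 21.3, 32.0 and 38.8 CPM in Ebi3 Tregs and 175, 229 and 195 CPM in IL10 Tregs. The 3 subsets did not overlap, and the IL10 mean was 21.7 times the DN mean. On the log2 scale the rise over DN was 4.59 ± 0.37 in IL10 Tregs (edgeR adjusted p = 3.47e-09) and 1.76 ± 0.35 in Ebi3 Tregs (adjusted p = 0.00112). Maf, which acts on Il10 directly, kept the same order. It was at 17.7, 4.36 and 20.9 CPM in DN, 69.1, 52.8 and 76.4 CPM in Ebi3 and 274, 148 and 287 CPM in IL10 Tregs, with no overlap. The log2 rises over DN were 4.10 ± 0.35 in IL10 Tregs (edgeR adjusted p = 4.34e-09) and 2.22 ± 0.33 in Ebi3 Tregs (adjusted p = 4.92e-05). Prdm1 and Maf were also the only members called between the cytokine-expressing subsets, 2 of 6 against 5.48% of all genes. Bach2 (-1.44 ± 0.54, edgeR adjusted p = 0.14) and Bcl6 libraries did not overlap between them either, without a call. IL10 exceeded Ebi3 Tregs by 2.83 ± 0.34 for Prdm1 (edgeR adjusted p = 5.58e-06) and by 1.88 ± 0.32 for Maf (adjusted p = 0.000362). The Maf difference missed the threshold with limma on the deposited log2 values (adjusted p = 0.0531) and without the libraries of replicate 3 (adjusted p = 0.0735).

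The partners Irf4 and Batf moved less and did not separate IL10 from Ebi3 Tregs. Irf4 was at 28.4, 66.9 and 41.5 CPM in DN, 88.9, 114 and 109 CPM in Ebi3 and 112, 130 and 129 CPM in IL10 Tregs. Batf was at 141, 116 and 131 CPM in DN, 261, 274 and 375 CPM in Ebi3 and 306, 340 and 409 CPM in IL10 Tregs. DN libraries lay below all others for both genes, while Ebi3 and IL10 libraries overlapped. The Irf4 rises over DN were 1.49 ± 0.25 (IL10, edgeR adjusted p = 8.49e-05) and 1.15 ± 0.25 (Ebi3, adjusted p = 0.00219), and the Batf rises were 1.43 ± 0.12 (adjusted p = 1.93e-09) and 1.13 ± 0.12 (adjusted p = 5.12e-07). Without the libraries of replicate 2 the Prdm1 rise in Ebi3 Tregs was 1.62 (adjusted p = 0.0728), and without those of replicate 1 the Irf4 rise was 0.97 (adjusted p = 0.0828).

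The antagonist Bach2 ran the other way. It was at 78.3, 85.1 and 73.1 CPM in DN, 27.5, 21.9 and 30.01 CPM in Ebi3 and 11.1, 13.3 and 4.91 CPM in IL10 Tregs, again with no overlap. Bach2 fell by 3.09 ± 0.56 on the log2 scale in IL10 Tregs (edgeR adjusted p = 0.000292) and fell by 1.64 ± 0.53 in Ebi3 Tregs (adjusted p = 0.041). The smaller fall missed the threshold without the low-count filter (adjusted p = 0.0741), with limma (adjusted p = 0.0628), without the batch block (adjusted p = 0.122) and without replicate 2 (adjusted p = 0.213) or 3 (adjusted p = 0.102). Bcl6 stayed at low levels, 6.76, 9.07 and 3.24 CPM in DN, 7.96, 14.4 and 9.42 CPM in Ebi3 and 2.26, 4.64 and 7.64 CPM in IL10 Tregs. DN libraries overlapped both other subsets, Ebi3 libraries lay above IL10 libraries, and no difference passed.

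Markers of other cells moved with these subsets. The 10 summed myeloid markers were 0.978 to 5.05 CPM in naive DN, 3.69 to 29.5 CPM in naive Ebi3 and 8.90 to 35.1 CPM in naive IL10 Tregs, and 1.93 to 4.43, 3.14 to 211 and 19.1 to 29.0 CPM in the lymph node subsets. The myeloid receptor gene Csf1r was at 0 in each of these groups but lymph node Ebi3 Tregs. The 8 summed B cell markers were 31.1 to 74.0, 66.3 to 88.3 and 54.1 to 75.3 CPM in naive DN, Ebi3 and IL10 Tregs, and 18.03 to 57.0, 61.1 to 102 and 47.9 to 95.6 CPM in the lymph node, with Pax5 at 0. Their part in the subset differences was not tested.

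**Figure D1:**
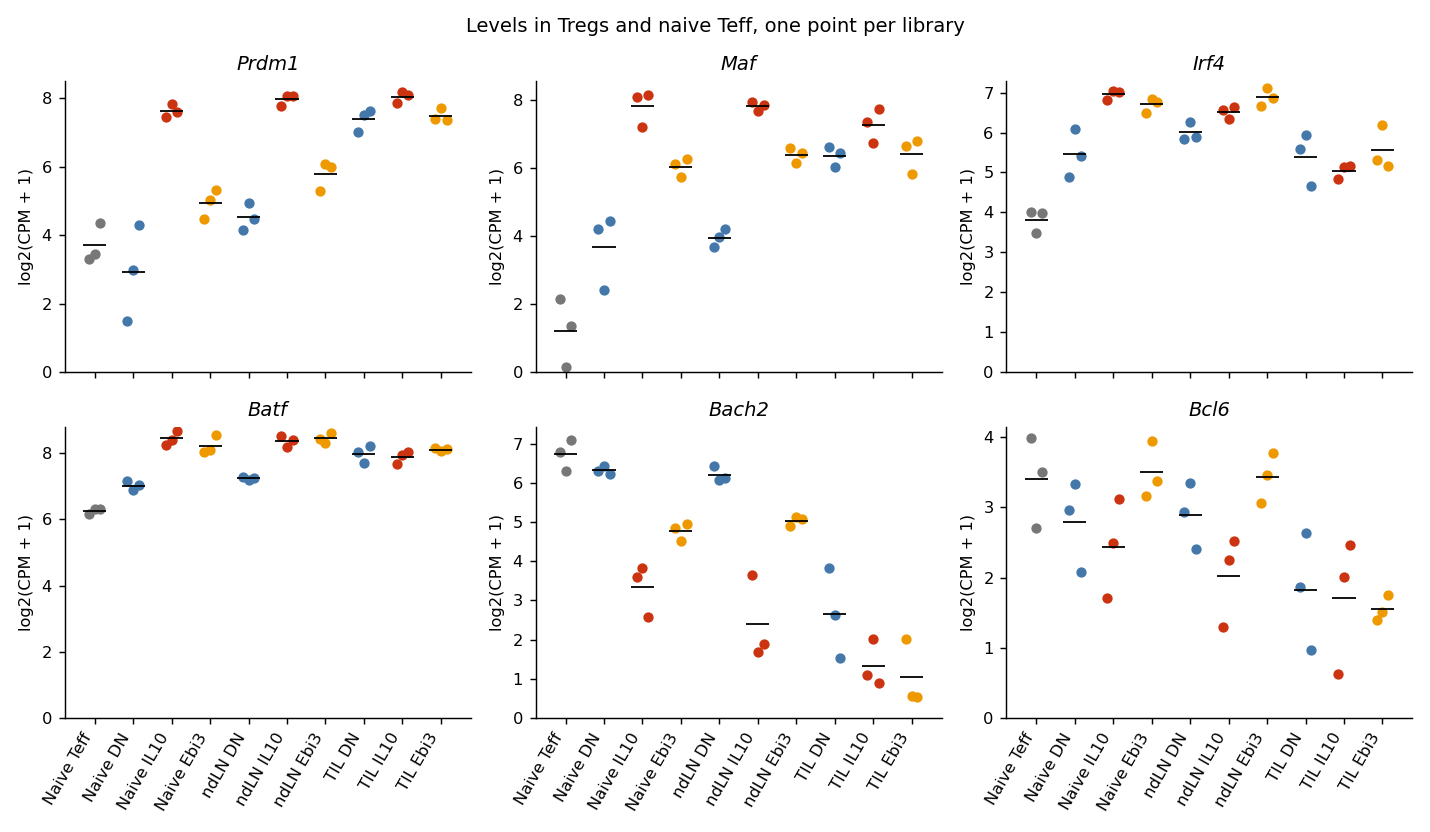
Level of each of the 6 genes, as log2(CPM + 1), in the 10 groups of the Treg experiment. Points are libraries and bars are means of the log2 values. As mean CPM, Prdm1 runs from 9.22 CPM in naive DN Tregs to 263 CPM in tumour IL10 Tregs, while Bach2 runs from 108 CPM in Teff to 1.32 CPM in tumour Ebi3 Tregs.

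The non-draining lymph node gave the same picture for Prdm1, Maf and Batf. IL10 Tregs passed the test in 4 of 6 genes against DN Tregs (16.2% of all genes), Ebi3 Tregs in 4 of 6 (13% of all genes), and IL10 differed from Ebi3 Tregs in 3 of 6 (5.07% of all genes). Prdm1 was at 16.9, 29.7 and 21.1 CPM in DN, 38.3, 66.8 and 62.5 CPM in Ebi3 and 220, 270 and 269 CPM in IL10 Tregs. Maf was at 11.8, 14.7 and 17.7 CPM, 95.1, 70.2 and 85.8 CPM, and 247, 206 and 234 CPM in the same order. Both genes separated the 3 subsets without overlap. Prdm1 rose over DN by 3.51 ± 0.35 in IL10 Tregs (edgeR adjusted p = 1.03e-07) and by 1.24 ± 0.33 in Ebi3 Tregs (adjusted p = 0.0129), and IL10 exceeded Ebi3 Tregs by 2.27 ± 0.33 (adjusted p = 8.02e-05). The corresponding Maf values were 3.96 ± 0.35 (edgeR adjusted p = 9.58e-09), 2.44 ± 0.33 (adjusted p = 1.83e-05) and 1.53 ± 0.31 (adjusted p = 0.0029). The Prdm1 rise in Ebi3 Tregs missed the threshold without the batch block (adjusted p = 0.0836) or replicate 2 (adjusted p = 0.145), and the last Maf difference with limma (adjusted p = 0.14), without the block (adjusted p = 0.149) or without replicate 3 (adjusted p = 0.174).

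Batf in the lymph node was at 156, 146 and 151 CPM in DN, 341, 317 and 391 CPM in Ebi3 and 366, 288 and 338 CPM in IL10 Tregs, rising by 1.15 ± 0.12 (edgeR adjusted p = 3.75e-07) and 1.13 ± 0.12 (adjusted p = 1.17e-07) over DN. Its partner Irf4 was at 56.6, 76.4 and 58.7 CPM in DN, 101, 137 and 116 CPM in Ebi3 and 93.3, 79.3 and 98.8 CPM in IL10 Tregs. The difference over DN passed in Ebi3 Tregs only, 0.83 ± 0.25 (edgeR adjusted p = 0.0253) against 0.54 ± 0.25 in IL10 Tregs (adjusted p = 0.146). The Ebi3 libraries lay above the IL10 libraries in Irf4, without a call. The Ebi3 call for Irf4 was lost without any of the 3 replicates (adjusted p from 0.0602 to 0.121), without the batch block (0.0762) and without the ndLN Ebi3 library with high myeloid markers (0.081). Bach2 was at 85.0, 65.8 and 68.5 CPM in DN, 28.8, 33.9 and 32.7 CPM in Ebi3 and 11.6, 2.19 and 2.68 CPM in IL10 Tregs, with no overlap. It fell by 3.92 ± 0.59 in IL10 against DN Tregs (edgeR adjusted p = 3.59e-05) and fell by 2.72 ± 0.57 against Ebi3 Tregs (adjusted p = 0.00399), the latter missing the threshold without replicate 2 (adjusted p = 0.0894) or 3 (adjusted p = 0.121). The Ebi3 against DN difference of -1.21 ± 0.52 did not pass (adjusted p = 0.137). From naive mice to the ndLN none of the 6 genes was called in DN, IL10 or Ebi3 Tregs, where 0.0852%, 0.0542% and 0.00775% of all genes were. At an unadjusted p under 0.05, edgeR gave 2, 0 and 1 of the 6, beside 959, 763 and 613 of all 12907 genes. DESeq2 called 1, 0 and 0 of the 6 and limma 0 in each. Over all genes DESeq2 called 73, 32 and 11 higher and 24, 20 and 5 lower. The DESeq2 call among the 6 was Prdm1 in DN Tregs, 1.41 ± 0.35 with edgeR (adjusted p = 0.165) and called there without replicate 3 (2.48, adjusted p = 0.00225).

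In tumours all 3 Treg subsets had high Prdm1 and low Bach2, and none of the 6 genes was called by edgeR in any comparison between them. The share of all genes called was 0.837% for IL10 against DN, 0.713% for Ebi3 against DN and 2.84% for IL10 against Ebi3. At an unadjusted p under 0.05, edgeR gave 3, 1 and 1 of the 6, beside 1201, 1240 and 1898 of all 12907 genes. DESeq2 called 0, 1 and 1 of the 6, and limma on the deposited log2 values 0, 1 and 0. Over all genes DESeq2 called 89, 47 and 322 higher and 132, 149 and 315 lower. With limma 27, 17 and 180 of 9885 genes were called higher and 100, 77 and 323 lower. Prdm1 was at 129, 182 and 198 CPM in DN, 167, 210 and 163 CPM in Ebi3 and 231, 288 and 270 CPM in IL10 Tregs. The IL10 libraries were still the highest, above every DN and Ebi3 library, by 0.71 ± 0.31 over DN (edgeR adjusted p = 0.472). Maf was at 97.9, 64.9 and 86.9 CPM in DN, 101, 56.0 and 111 CPM in Ebi3 and 163, 107 and 216 CPM in IL10 Tregs. The IL10 libraries lay above all DN libraries but overlapped the Ebi3 libraries, with differences of 0.98 ± 0.31 (edgeR adjusted p = 0.19) and 0.94 ± 0.31 (adjusted p = 0.11, and 0.0418 with DESeq2). For Irf4 and Batf every IL10 library lay below every Ebi3 library, narrowly and without a call. Irf4 was at most 34.52 CPM in IL10 and at least 34.72 CPM in Ebi3 Tregs, and Batf at most 260.5 and at least 265.4 CPM. For both genes IL10 and DN libraries overlapped. Bach2 was near its lowest levels in all 3 subsets, 13.3, 5.12 and 1.87 CPM in DN, 3.03, 0.462 and 0.454 CPM in Ebi3 and 1.15, 3.03 and 0.848 CPM in IL10 Tregs. The Ebi3 against DN difference in Bach2 of -2.32 ± 0.61 had an adjusted p of 0.0901 with edgeR, 0.00352 with DESeq2 and 0.0298 with limma. A p above the threshold does not show that the subsets were the same.

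Between the lymph node and the tumour, DN Tregs differed in 4 of 6 genes, where 23.4% of all genes were called. In DN Tregs Prdm1 rose by 3.03 ± 0.34 (edgeR adjusted p = 4.37e-07), Maf by 2.59 ± 0.33 (adjusted p = 2.15e-06) and Batf by 0.87 ± 0.12 (adjusted p = 4.27e-06), while Bach2 fell by 3.50 ± 0.58 (adjusted p = 6.79e-05). Batf went from 156, 146 and 151 CPM to 261, 208 and 295 CPM. In all 4 genes the tumour libraries stood clear of the lymph node libraries. IL10 Tregs, already high in Prdm1 and Maf in the lymph node, were called in 1 of 6 genes (9.32% of all genes): Irf4 fell by 1.34 ± 0.25 (edgeR adjusted p = 0.000513), from 93.3, 79.3 and 98.8 CPM to 27.4, 34.5 and 34.5 CPM. Their Prdm1 difference was 0.23 ± 0.31 and their Maf difference -0.39 ± 0.30, neither passing. Batf in IL10 Tregs was called lower in the tumour by limma alone (-0.48, adjusted p = 0.00661), and was at -0.31 with edgeR. In that comparison the median over all genes was -0.20 with limma and -0.02 with edgeR.

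Ebi3 Tregs were called in 4 of 6 genes between lymph node and tumour (10.3% of all genes). Prdm1 rose by 1.90 ± 0.33 (edgeR adjusted p = 0.000204). Irf4 fell by 1.15 ± 0.25 (adjusted p = 0.00202), from 101, 137 and 116 CPM to 38.8, 72.2 and 34.7 CPM, Bach2 fell by 4.62 ± 0.64 (adjusted p = 1.19e-05) and Bcl6 fell by 2.17 ± 0.69 (adjusted p = 0.0426). Bcl6 went from 7.32, 9.97 and 12.7 CPM to 1.62, 1.85 and 2.37 CPM, the one Treg comparison in which it passed. That Bcl6 call was lost without any of the 3 replicates (adjusted p from 0.126 to 0.284), without the low-count filter (0.0576), without the batch block (0.0647) and without the ndLN Ebi3 library with high myeloid markers (0.142). The Irf4 call in Ebi3 Tregs was lost without replicate 1 (adjusted p = 0.053) or 3 (adjusted p = 0.0694). In DN Tregs the Irf4 difference of -0.44 ± 0.25 and the Bcl6 difference of -1.11 ± 0.67 did not pass. Summed B cell markers were 61.1 to 102 CPM in lymph node and 29.9 to 50.96 CPM in tumour Ebi3 Tregs, and summed dendritic cell markers 10.5 to 22.9 and 28.9 to 50.7 CPM in DN Tregs, and their part in these differences was not tested. Irf4 was thus the one activating factor whose tumour means, 32.1 to 48.6 CPM, were below its lymph node means, 63.9 to 118 CPM, in all 3 subsets.

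Whether the subset difference itself changed with the site was tested as an interaction. For IL10 against DN, 3 of the 6 genes had a smaller difference in the tumour than in the lymph node, where 4.49% of all genes were called. The change was -2.80 ± 0.46 for Prdm1 (edgeR adjusted p = 0.000525), -2.98 ± 0.45 for Maf (adjusted p = 0.000161) and -1.17 ± 0.17 for Batf (adjusted p = 6.63e-05). Bach2 changed by 2.10 ± 0.83 and missed the threshold (adjusted p = 0.16), passing only without replicate 1 (3.90, adjusted p = 0.00927). For Ebi3 against DN, 2 of 6 were called (1.61% of all genes), Maf at -2.39 ± 0.45 (edgeR adjusted p = 0.00443) and Batf at -1.05 ± 0.17 (adjusted p = 0.000832). The Prdm1 change of -1.13 ± 0.45 did not pass (adjusted p = 0.262). The Maf change for Ebi3 missed the threshold with limma (adjusted p = 0.13), without the batch block (0.207) and without replicate 1 (0.0807) or 3 (0.157), and the Batf change without replicate 3 (0.145).

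**Figure D2:**
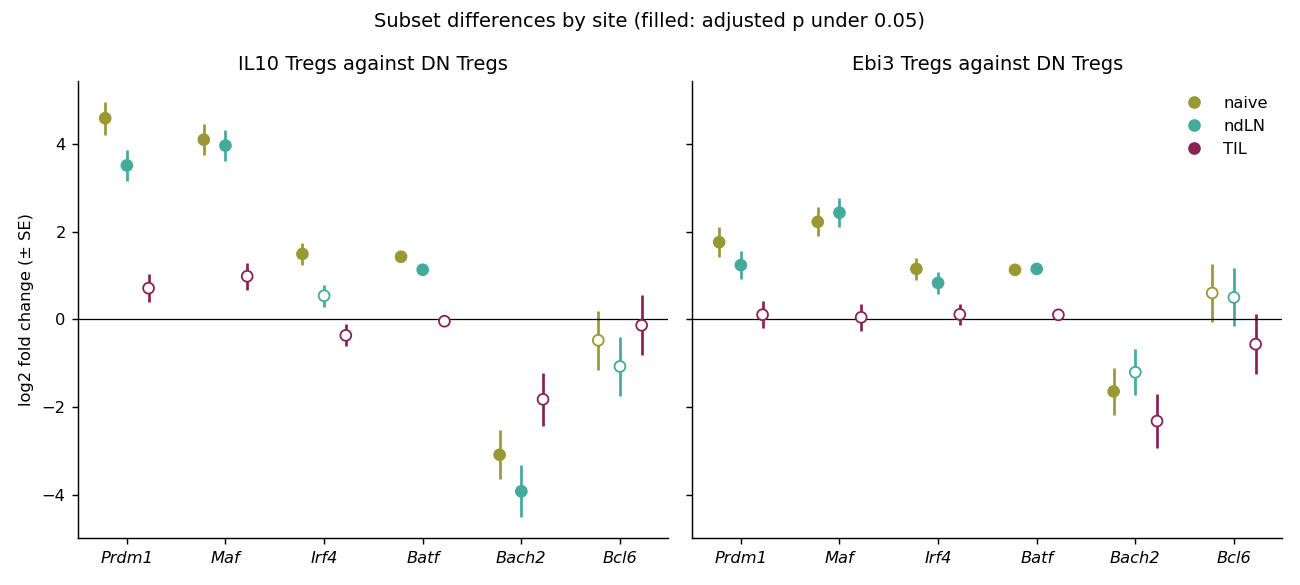
Log2 fold change (edgeR) of the 6 genes for IL10 against DN and Ebi3 against DN Tregs at the 3 sites. Bars are the SE derived from the F statistic, and filled points had an adjusted p under 0.05. Prdm1 and Maf stand at 4.59 and 4.10 in naive IL10 Tregs and at 0.71 and 0.98 in the tumour, where no member passed the test.

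The other genes of the same pathways were followed as 7 lists, beside the share of all genes called in each comparison (17.8% for naive IL10, 12.8% for naive Ebi3, 16.2% for lymph node IL10 and 13% for lymph node Ebi3 against DN Tregs). Of 8 genes known to be held down by Blimp-1, 4 fell and 1 rose in naive IL10 against DN Tregs, with a median log2 change of -2.91 beside 0.01 over all genes. Tcf7, the factor of memory and resting T cells, fell by 3.14 ± 0.35, and Myb rose by 1.16 ± 0.39. In naive Ebi3 Tregs 1 of the 8 rose and 1 fell, and in lymph node IL10 Tregs 4 fell. Of 7 tested genes of a coinhibitory module driven by Blimp-1 and Maf, 6 rose in naive and 6 in lymph node IL10 Tregs, and 4 and 3 in Ebi3 Tregs. Il10 was 1 of these and was the basis of the sort, at 97.9 CPM in naive IL10 Tregs against 0.0858 CPM in DN Tregs. Havcr2, which encodes TIM-3, was at 84.7 against 0.114 CPM. Of 9 tissue Treg genes that need Batf, 9 rose in naive IL10 Tregs and 6 in naive Ebi3 Tregs, with medians of 2.93 and 1.83. Klrg1, a receptor of effector Tregs, rose by 5.56 ± 0.79, and Pparg, the nuclear receptor of fat-resident Tregs, was at 0 in DN and at 21.6 CPM in IL10 Tregs.

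The DNA-binding partners, corepressors and follicular genes had few calls, in shares near the 17.8% of all genes in the same comparison, which is no result about these lists. Of 10 tested AP-1 and IRF partners of Batf, 2 rose (Fosl2 by 4.20 ± 0.90 and Irf8 by 1.01 ± 0.30) and 1 fell (Jun, -1.87 ± 0.55) in naive IL10 against DN Tregs. Of 8 small Maf and CNC partners of Bach2, Mafg alone passed and rose by 2.78 ± 0.90. Of 8 corepressors of Bcl6, Tbl1xr1 rose by 0.67 ± 0.18 and Bcor by 0.52 ± 0.17. Of 7 tested follicular helper genes, the costimulatory receptor Icos rose by 3.57 ± 0.16 and the inhibitory receptor Btla fell by 0.86 ± 0.16. In the tumour the IL10 against DN comparison, with 0.837% of all genes called, gave 3 of the 8 Blimp-1 genes, all lower, 1 of 7 coinhibitory genes, 1 of 9 tissue Treg genes, and 0 of the Batf and Bach2 partners and Bcl6 corepressors.

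Between lymph node and tumour, 23.4% of all genes were called in DN, 9.32% in IL10 and 10.3% in Ebi3 Tregs. In DN Tregs 5 of the 8 Blimp-1 genes fell, with Id3 lower by -5.18 ± 0.36, 6 of 7 coinhibitory genes rose (Havcr2 by 4.18 ± 0.77) and 8 of 9 tissue Treg genes rose (Areg, the repair factor amphiregulin, by 4.46 ± 0.61). The partners of Batf also moved with the site: 7 of 10 rose in DN, 6 in IL10 and 7 in Ebi3 Tregs, and none fell. In IL10 Tregs Jun rose by 5.25 ± 0.66 and Fos by 4.11 ± 0.95, in the subset where Batf itself was not called. Of 7 follicular helper genes, 4 fell and 1 rose in DN Tregs.

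Ranked by mean level, Prdm1 fell into an upper block of 5 groups (all 3 IL10 groups and tumour Ebi3 and DN Tregs, 170 to 263 CPM) and a lower block of 5 (9.22 to 55.9 CPM). Neighbours within each block overlapped and the blocks did not. Maf had IL10 Tregs on top (naive 236, lymph node 229 and tumour 162 CPM) and Teff lowest at 1.71 CPM, below every Treg library. Batf had Teff (76.0 CPM), naive DN (130 CPM) and lymph node DN Tregs (151 CPM) apart from each other and from the 7 other groups, whose neighbours overlapped between 237 and 352 CPM. Irf4 separated Teff (13.3 CPM) from all Tregs, and the 4 cytokine-expressing groups outside the tumour (90.5 to 124 CPM) from the other groups. Bach2 formed 3 blocks, Teff and DN Tregs outside the tumour (73.1 to 108 CPM), Ebi3 Tregs outside the tumour (26.5 and 31.8 CPM) and the remaining 5 groups (1.32 to 9.76 CPM). Bcl6, between 1.95 and 10.6 CPM, overlapped between all neighbours.

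The log2 ratio of Prdm1 to Bach2, with 1 CPM added to each, put these opposing levels on one scale. It was -3.38 ± 1.46 (SD, n = 3) in naive DN, 0.18 ± 0.47 in naive Ebi3 and 4.31 ± 0.65 in naive IL10 Tregs. In the lymph node it was -1.68 ± 0.57, 0.76 ± 0.31 and 5.58 ± 1.25 in the same order, and in the tumour 4.74 ± 1.47, 6.46 ± 0.95 and 6.70 ± 0.52. Every tumour Treg library therefore held more Prdm1 than Bach2 counts, and every DN library outside the tumour fewer. Counts are not corrected for gene length, so the sign of the ratio does not rank the amounts of the transcripts. Over the 10 group means of log2(CPM + 1), Prdm1 and Bach2 had a Pearson r of -0.93 (Spearman -0.88). The residuals of the 30 libraries within group and batch had an r of 0.34, so the opposition was one between groups and was not seen among libraries of a group. Group means share libraries, depth and batch across genes, and no test was attached. By the same measure Maf and Batf had an r of 0.95, Prdm1 and Maf 0.86 and Bach2 and Bcl6 0.87.

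**Figure D3:**
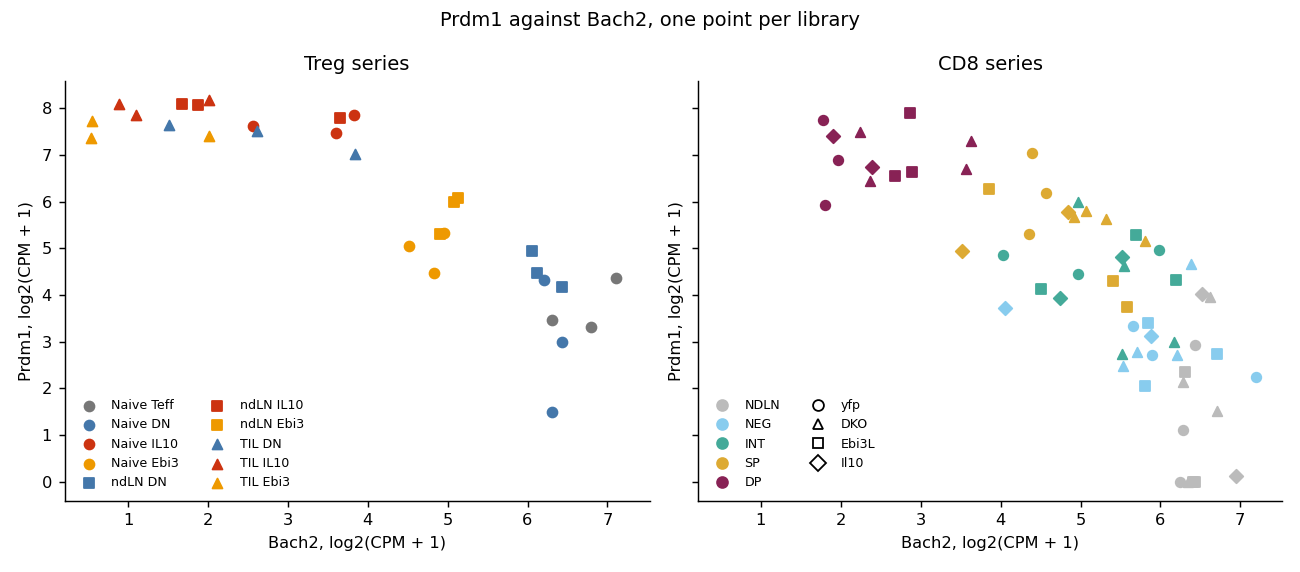
Prdm1 against Bach2 in every library, both as log2(CPM + 1), for the Treg experiment and the CD8 experiment. Tumour Tregs and DP CD8 cells lie at high Prdm1 and low Bach2, and over group means r was -0.93 and -0.90.

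Genes whose group means followed each member most closely in the Treg experiment, of 9513 with a mean of at least 5 CPM, included Havcr2 (r = 0.99) and Plk3 (0.98) for Prdm1, Gm2382 and Icos (0.99) for Maf and Sesn2, Neu3 and Pithd1 (0.97) for Irf4. For Batf they were Sec11c (0.99), Slc22a15 and BC064078 (0.98), for Bach2 Degs2 (0.99), Nfix and Rassf5 (0.98), and for Bcl6 Snrnp70, Pim2 (0.97) and Srsf4 (0.96). These are likenesses over 10 points.

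In CD8+ cells of yfp hosts, the members were compared along the sort by inhibitory receptors: Prdm1, Irf4 and Batf were higher and Bach2 and Bcl6 lower in DP than in NEG cells, 5 of the 6 genes, where 33.2% of all 12791 genes were called. Prdm1 was at 6.61, 0 and 1.16 CPM in NDLN, 9.09, 3.73 and 5.52 CPM in NEG, 20.9, 30.2 and 27.8 CPM in INT, 130, 72.0 and 38.6 CPM in SP and 212, 117 and 60.1 CPM in DP cells. NEG, INT and SP did not overlap, and SP and DP did. Libraries are given in the order of 3 sets named in the labels, each of which gave every population. Within every set Prdm1 was higher in DP than in SP cells. The edgeR fit blocked on batch, which joins the sets of the first 2 libraries. DP exceeded NEG by 4.31 ± 1.05 (edgeR adjusted p = 0.0103). That call missed the threshold with limma (4.20, adjusted p = 0.0661) and without yfp replicate 3 (4.68, adjusted p = 0.0623).

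Bach2 in yfp hosts was at 85.1, 74.8 and 77 CPM in NDLN, 49.5, 145 and 58.5 CPM in NEG, 30.4, 62.3 and 15.3 CPM in INT, 20.1, 22.7 and 19.5 CPM in SP and 2.44, 2.90 and 2.48 CPM in DP cells. The DP libraries lay well below all others. Bach2 fell by 4.95 ± 0.48 from NEG to DP (edgeR adjusted p = 6.97e-06) and fell by 2.91 ± 0.44 from SP to DP (adjusted p = 0.00305), the latter at 0.0658 and 0.0611 without replicate 1 or 3. Bcl6, whose means were 3.75 to 5.31 CPM in the other 4 populations, was at 0.470, 0.279 and 0.362 CPM in DP cells, below every other yfp library. It fell by 3.24 ± 0.79 from NEG (edgeR adjusted p = 0.00612; 0.106 without replicate 2) and fell by 3.70 ± 0.80 from SP (adjusted p = 0.0345). The second of these missed the threshold without the low-count filter (0.0598), without the batch term (0.0519) and without any of the replicates (from 0.242 to 0.317). B cells express both genes, and the 8 summed B cell markers ran the same way, 43.0 to 61.7 CPM in NEG, 32.2 to 50.4 CPM in INT, 5.10 to 11.5 CPM in SP and 0 to 1.82 CPM in DP cells of yfp hosts, with Pax5 and Ms4a1 at 0 in each. Summed plasma cell markers, genes of cells known for high Prdm1, were 52.6 to 115 CPM in NEG and 120 to 203 CPM in DP cells, with Mzb1 at 0 in both. Summed CD4 and Treg markers were 46.6 to 89.0 CPM in NEG and 172 to 343 CPM in DP cells. Of these, Cd4 and Foxp3 were at 0 in every NEG library, and neither was at 0 in every DP library. The part of any of these markers' cells in the differences was not tested.

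Irf4 and Batf did not follow Prdm1 step by step. Irf4 was at 12.3, 22.3 and 5.96 CPM in NEG, 52.9, 41.6 and 19.7 CPM in SP and 50.3, 54.9 and 14.5 CPM in DP cells. DP exceeded NEG by 1.53 ± 0.41 (edgeR adjusted p = 0.011) with overlapping libraries, though DP was above NEG within every set. Batf was at 29.8, 54.4 and 49.4 CPM in NDLN, 47.6, 69.2 and 87.0 CPM in NEG, 60.3, 70.3 and 154 CPM in INT, 138, 170 and 331 CPM in SP and 118, 126 and 196 CPM in DP cells. It was thus highest in SP, with overlap between neighbours, and was lower in DP than in SP cells within every set. Batf rose by 1.16 ± 0.24 from INT to SP (edgeR adjusted p = 0.0152) and DP exceeded NEG by 1.12 ± 0.24 (adjusted p = 0.00275). Without a batch term the Irf4 call and both Batf calls were lost (adjusted p = 0.0971, 0.453 and 0.166), the Irf4 call also without replicate 1 (0.142) and the INT to SP call without replicate 1 (0.09) or 3 (0.119). Maf, low throughout, was highest in INT (7.07, 11.7 and 18.5 CPM), above every SP (3.41, 4.65 and 1.82 CPM) and DP library (3.91, 1.29 and 0.697 CPM), and the DP against NEG difference of 0.25 ± 1.16 did not pass.

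Step by step in yfp hosts, 0 of 6 genes were called from NDLN to NEG (1.56% of all genes), 0 from NEG to INT (0.938%), 1 from INT to SP (4.89%) and 2 from SP to DP (1.21%). At the first 2 steps edgeR gave 1 and 1 of the 6 genes at an unadjusted p under 0.05, beside 1931 and 1697 of all 12791. DESeq2 called 0 and 1 of the 6, and limma 0 and 0. Over all genes DESeq2 called 520 and 316 higher and 186 and 229 lower. The DESeq2 call among the 6 was Bach2 from NEG to INT, -1.31 ± 0.41 with edgeR. Prdm1 had no called step, with 0.77 ± 0.91 from SP to DP, and was called only from NEG to DP. Its NEG, INT and SP libraries did not overlap, so the lack of a call does not show that a step was absent.

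**Figure D4:**
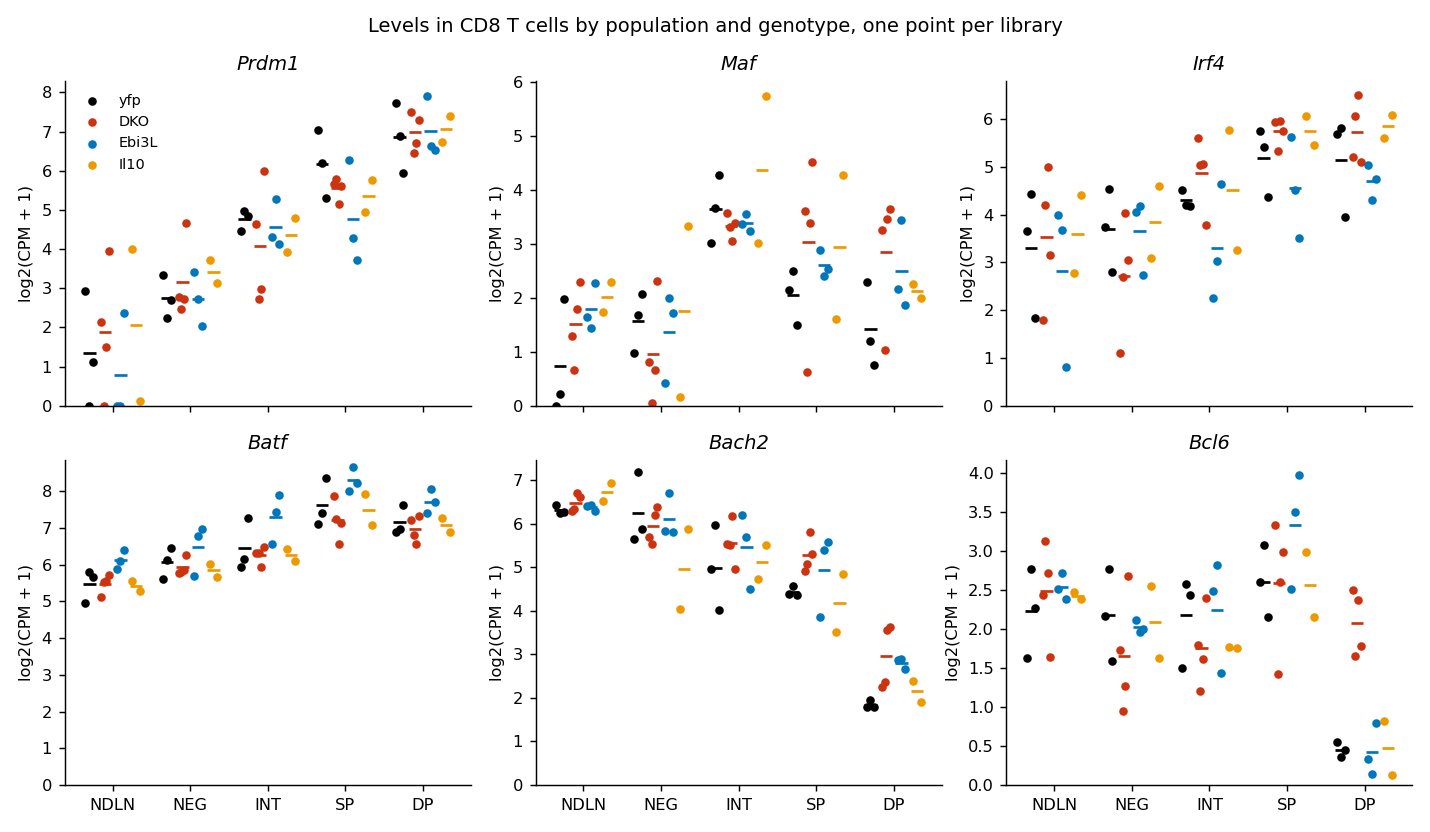
Level of the 6 genes, as log2(CPM + 1), in the 5 CD8 populations of the 4 host genotypes. Points are libraries and bars are means of the log2 values. As mean CPM, Bach2 goes from 79.0 CPM in NDLN to 2.61 CPM in DP cells of yfp hosts, and Bcl6 in DP cells is at 3.36 CPM in DKO hosts and at 0.371, 0.363 and 0.431 CPM in yfp, Ebi3L and Il10 hosts.

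Hosts whose Tregs lacked both cytokines or IL-35 also had more Prdm1 and Batf and less Bach2 in DP than in NEG cells. In DKO hosts, DP and NEG cells differed in 5 of 6 genes (41.4% of all 12672 genes) and in Ebi3L hosts in 4 of 6 (33.3% of all 12822 genes). Prdm1 in DKO hosts was at 5.90, 4.55, 5.57 and 24.2 CPM in NEG and 180, 86.4, 103 and 155 CPM in DP cells, and in Ebi3L hosts at 9.59, 5.65 and 3.12 CPM and 237, 97.8 and 91.9 CPM. No DP library overlapped a NEG library. DP exceeded NEG by 3.80 ± 0.96 (DKO, edgeR adjusted p = 0.00483) and 4.56 ± 1.35 (Ebi3L, adjusted p = 0.026; 0.0505 and 0.136 without Ebi3L replicate 1 or 2). Bach2 fell by 3.09 ± 0.33 in DKO (adjusted p = 1.02e-06) and fell by 3.51 ± 0.50 in Ebi3L hosts (adjusted p = 8.62e-05). Batf rose by 1.08 ± 0.24 (adjusted p = 0.00141) and by 1.29 ± 0.21 (adjusted p = 0.000182; 0.0927 without the batch term).

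The remaining members differed in their calls. In DKO hosts Irf4 was at 1.14, 5.44, 15.3 and 7.34 CPM in NEG and 35.8, 66.4, 90.2 and 33.3 CPM in DP cells, a rise of 2.95 ± 0.71 (edgeR adjusted p = 0.00318) without overlap. Maf rose there by 2.62 ± 0.81 (adjusted p = 0.014), from 0.761, 0.0425, 0.594 and 3.97 CPM to 8.53, 1.06, 9.97 and 11.6 CPM with overlap. That Maf call missed the threshold without the batch term (0.0545) and without DKO replicate 1 (0.0802) or 3 (0.0761). The NEG library at 0.0425 CPM was below the floor of 3 counts. Ebi3L hosts had neither call, at 1.03 ± 0.87 for Irf4 and 1.65 ± 0.84 for Maf. Bcl6 fell by 3.02 ± 0.92 in Ebi3L hosts (edgeR adjusted p = 0.0184; 0.113 and 0.182 without replicate 1 or 2), but was at 2.33, 0.935, 1.42 and 5.38 CPM in NEG and 4.67, 2.15, 4.19 and 2.43 CPM in DP cells of DKO hosts, which overlapped (0.47 ± 0.66). In Il10 hosts, with 2 libraries a group, the populations were not tested against each other. Prdm1 was at 12.2 and 7.75 CPM in NEG and 106 and 167 CPM in DP cells there, and Bach2 at 15.6 and 57.9 CPM and at 4.26 and 2.74 CPM, both without overlap. Summed B cell markers were also lower in DP cells outside yfp hosts, at 41.6 to 55.5 CPM in NEG and 1.88 to 21.1 CPM in DP cells of DKO hosts and at 28.1 to 76.4 CPM and 0.365 to 22.3 CPM in Ebi3L hosts, and their part was not tested. Summed CD4 and Treg markers were 24.4 to 249 CPM in NEG and 237 to 432 CPM in DP cells of DKO hosts. In Ebi3L hosts this sum was 47.8 to 150 CPM and 217 to 338 CPM, and its part was not tested. Cd4 and Foxp3 were both at 0 in every DP library of Ebi3L hosts, so Il2ra and Ikzf2 made up the sum there. In DKO hosts neither was at 0 in every DP library. Cd4 was at 0 in every NEG library of both genotypes.

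In DKO hosts 0, 0, 1 and 1 of 6 genes were called from NDLN to NEG (5.58% of all genes), NEG to INT (0.0395%), INT to SP (2.01%) and SP to DP (9.44%). In Ebi3L hosts 0, 0, 1 and 2 were (1.44%, 1.76%, 4.96% and 3.34% of all genes). For the steps without an edgeR call, an unadjusted p under 0.05 was reached by 1 and 2 of the 6 in DKO and 0 and 2 in Ebi3L hosts. Over all genes it was reached by 2433 and 1424 of 12672 in DKO and 1479 and 1831 of 12822 in Ebi3L hosts. DESeq2 called 0 and 2 of the 6 in each, and limma 0. Over all genes DESeq2 called 844 and 233 higher and 374 and 75 lower in DKO hosts. In Ebi3L hosts DESeq2 called 387 and 515 higher and 133 and 228 lower. The DESeq2 calls among the 6, from NEG to INT, were Maf and Irf4 in DKO and Maf and Batf in Ebi3L hosts. With the labelled set as block, edgeR called Maf in DKO (4.01, adjusted p = 0.0384). Batf rose from INT to SP by 0.98 ± 0.24 in DKO (edgeR adjusted p = 0.037) and by 0.97 ± 0.21 in Ebi3L hosts (adjusted p = 0.0137). Bach2 was lower in DP than in SP cells, by a log2 difference of -2.35 ± 0.32 in DKO (adjusted p = 0.000182) and of -2.35 ± 0.48 in Ebi3L hosts (adjusted p = 0.0143). Bcl6 also fell by 4.59 ± 0.98 in Ebi3L hosts (adjusted p = 0.0164), from 4.73, 10.3 and 14.7 CPM to 0.256, 0.101 and 0.734 CPM. The Batf calls were lost without the batch term (adjusted p = 0.0561 and 0.589) and without DKO replicate 1, 2 or 4 (0.331, 0.195 and 0.0923) or Ebi3L replicate 1 or 2 (0.156 and 0.236). In Ebi3L hosts the Bach2 call was lost without the batch term (0.0539) or replicate 2 (0.264) or 3 (0.098), and the Bcl6 call without any of the replicates (from 0.0704 to 0.301).

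**Figure D5:**
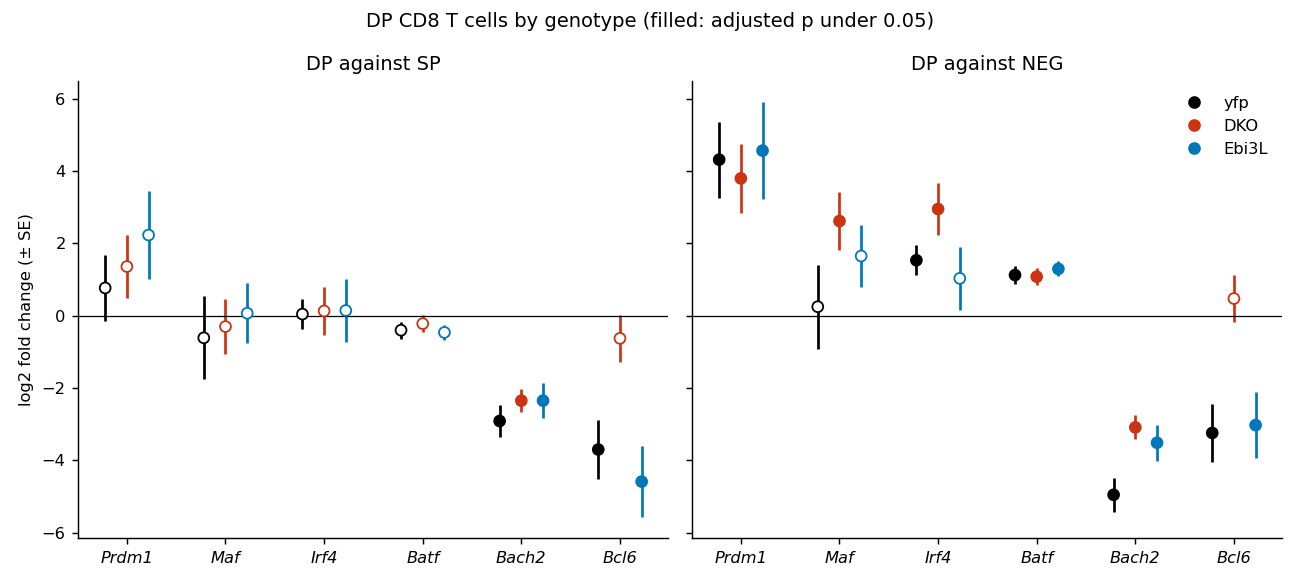
Log2 fold change (edgeR) of the 6 genes for DP against SP cells (left) and DP against NEG cells (right) in yfp, DKO and Ebi3L hosts. Bars are the SE derived from the F statistic, and filled points had an adjusted p under 0.05. Against NEG, Bach2 lies between -4.95 and -3.09 in the 3 genotypes, while Bcl6 lies at -3.24 and -3.02 in yfp and Ebi3L and at 0.47 in DKO hosts.

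Whether loss of the Treg cytokines changed these factors in CD8 cells was tested within each population against yfp, 90 tests over the 6 genes, 5 populations and 3 genotypes. None was called by edgeR, as for nearly all genes: the share of all genes called for DKO, Ebi3L and Il10 was 0%, 0% and 0.00811% in NDLN, 0%, 0% and 0% in NEG, 0.00775%, 0.00775% and 0.00775% in INT, 0%, 0% and 0% in SP and 0%, 0% and 0% in DP cells. At an unadjusted p under 0.05, edgeR gave 11 of the 90 (12.2%), beside 4.53% of the 191781 tests of all genes in the same 15 comparisons. DESeq2 called 2 of the 90 and limma 0. Genotypes were spread unevenly over batches 1 to 3, so that batch and genotype can be told apart only in part. Libraries labelled set12 carried batch 1 for yfp and batch 3 for Ebi3L hosts, and batch was used as labelled.

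Prdm1 in SP cells had a lower mean in all 3 deleted genotypes than in yfp, without an edgeR call. It was at 130, 72.0 and 38.6 CPM in yfp, 49.6, 54.8, 34.4 and 48.1 CPM in DKO, 75.8, 18.6 and 12.3 CPM in Ebi3L and 29.6 and 53.6 CPM in Il10 hosts. The DKO and yfp libraries overlapped through the third yfp library alone, the one of batch 3, and the other genotypes also overlapped yfp. All 3 comparisons used the same yfp libraries, so their shared direction was not independent. Within batch 1 the yfp mean was 101 CPM (2 libraries), the DKO mean 44 CPM (3 libraries) and the single Ebi3L and Il10 libraries 75.8 and 53.6 CPM, and within batch 3 yfp was at 38.6 CPM and Ebi3L at 15.5 CPM (2 libraries). The difference from yfp was -1.29 ± 0.35 for DKO (edgeR adjusted p = 0.458), -0.94 ± 0.33 for Ebi3L and -1.42 ± 0.42 for Il10. DESeq2 called the DKO difference (adjusted p = 0.0325), and edgeR without a low-count filter called all 3 (adjusted p = 0.00065, 0.0466 and 0.00758). Of all 18707 genes, edgeR without that filter called 163, 79 and 32 higher and 96, 78 and 45 lower for DKO, Ebi3L and Il10. For DKO, DESeq2 called 124 of 13255 genes higher and 47 lower. Maf in SP cells went the other way, 3.41, 4.65 and 1.82 CPM in yfp against 11.3, 0.549, 9.46 and 21.8 CPM in DKO and 2.06 and 18.5 CPM in Il10 hosts, with overlap. Its difference was 1.75 ± 0.55 for DKO and 2.75 ± 0.70 for Il10, the latter called by DESeq2 (adjusted p = 0.0228).

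Bach2 libraries of DKO hosts lay above those of yfp hosts in SP and DP cells, and Bcl6 libraries in DP cells, without an edgeR call. Bach2 in SP cells was at 20.1, 22.7 and 19.5 CPM in yfp and 29.1, 32.7, 55.1 and 38.9 CPM in DKO hosts, which did not overlap (1.24 ± 0.39, called only without a low-count filter, edgeR adjusted p = 0.0153). Summed B cell markers in SP cells were 5.10 to 11.5 CPM in yfp and 2.03 to 41.8 CPM in DKO hosts, and their part in the difference was not tested. In DP cells it was at 2.44, 2.90 and 2.48 CPM in yfp, 3.73, 4.14, 10.9 and 11.4 CPM in DKO, 6.28, 6.43 and 5.39 CPM in Ebi3L and 4.26 and 2.74 CPM in Il10 hosts. The DKO and Ebi3L libraries were all above the same yfp libraries, by 1.53 ± 0.66 and 1.21 ± 0.66. Within batch 1 the means were 2.67 CPM in yfp, 8.68 CPM in DKO, 6.28 CPM in Ebi3L and 2.74 CPM in Il10 hosts, and within batch 3 yfp was at 2.48 and Ebi3L at 5.91 CPM.

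Bcl6 in DP cells was at 0.470, 0.279 and 0.362 CPM in yfp, 4.67, 2.15, 4.19 and 2.43 CPM in DKO, 0.256, 0.101 and 0.734 CPM in Ebi3L and 0.770 and 0.0913 CPM in Il10 hosts. All 4 DKO libraries were above the 8 others, and the difference from yfp was 3.14 ± 1.38 (edgeR adjusted p = 0.935). Within batch 1 the DKO mean was 3.76 CPM against 0.375 CPM in yfp hosts. B cells express both Bach2 and Bcl6, and the summed B cell markers, 8 genes, also differed: 0 to 1.82 CPM in yfp, 1.88 to 21.1 CPM in DKO and 0.365 to 22.3 CPM in Ebi3L DP libraries, against 43.4 to 105 CPM in NDLN libraries. In DP cells Pax5, Ms4a1 and Fcrla were at 0 in both yfp and DKO hosts, and Cd79b averaged 0.54 and 5.45 CPM. The part of these cells in the Bach2 and Bcl6 values was not tested.

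For Prdm1 in DP cells the differences of DKO, Ebi3L and Il10 from yfp were -0.18 ± 0.25, 0.56 ± 0.26 and 0.05 ± 0.31, and none passed. The DP minus NEG difference was also compared between genotypes, with 0 of 6 genes called by edgeR in each, beside 0%, 0% and 0% of all genes for DKO, Ebi3L and Il10. At an unadjusted p under 0.05, edgeR gave 3, 1 and 1 of the 6 genes, beside 430, 481 and 681 of all 13788. DESeq2 and limma called 0 of the 6. The 3 at that unadjusted p in DKO were Irf4 (1.72 ± 0.67), Bach2 (1.63 ± 0.55) and Bcl6 (3.89 ± 1.49). Bach2 was the one in Ebi3L (1.38 ± 0.58) and in Il10 hosts (1.67 ± 0.68). Without Il10 replicate 2 the Il10 value was 2.90, with 1 Il10 library left in NEG (15.6 CPM) and 1 in DP cells (4.26 CPM).

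The pathway lists were also followed in CD8 cells, where 33.2%, 41.4% and 33.3% of all genes were called between DP and NEG cells of yfp, DKO and Ebi3L hosts. From NEG to DP in yfp hosts, 7 of 8 genes held down by Blimp-1 fell (median -6.18, all genes 0.02), with Tcf7 going from 573 to 0.904 CPM. In DKO hosts 6 fell and Il2 rose by 6.11 ± 1.74, and in Ebi3L hosts 6 fell. Of 6 tested coinhibitory genes 5, 6 and 5 rose in yfp, DKO and Ebi3L hosts, but 2 of these, Pdcd1 and Havcr2, encode the receptors on which the cells were sorted. Of 10 tested partners of Batf in yfp hosts, 1 rose (Irf8 by 2.86 ± 0.86) and 5 fell, among them Fos (-3.01 ± 0.97) and Irf1 (-1.70 ± 0.21). Of 8 partners of Bach2, 3 fell, among them Nfe2l2 (-2.41 ± 0.25) and Bach1 (-2.28 ± 0.62), a share close to that of all genes and no result about the list. Of 7 tested tissue Treg genes 4 rose and 1 fell, the integrin Itgae (-6.67 ± 0.89), and of the 7 follicular helper genes 1 rose and 2 fell, with Cxcr5 lower by -4.96 ± 0.81, again close to the share of all genes.

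The log2 ratio of Prdm1 to Bach2 in yfp hosts was -4.97 in NDLN, -3.49 in NEG, -0.24 in INT, 1.73 ± 0.85 (SD, n = 3) in SP and 5.0 ± 0.91 in DP cells. It was 0.28 in SP and 4.03 in DP cells of DKO hosts and -0.18 and 4.21 in those of Ebi3L hosts. Over the 20 group means Prdm1 and Bach2 had a Pearson r of -0.90 (Spearman -0.93), and the residuals of the 60 libraries an r of -0.28. Prdm1 and Maf, at 0.86 over Treg groups, had an r of 0.41 over CD8 groups, and Bach2 and Bcl6 0.66. Of 9465 genes, those closest to Prdm1 over the CD8 groups were Aldoa (0.98), Stk39 and Vmp1 (0.97), those closest to Bach2 Kdm5b, Rgs10 and Il7r (0.97), and those closest to Batf Prdx2 (0.97), Gng10 and Ccdc104 (0.96). Irf4 was followed by Nde1, Gtse1 and Slc29a1 (0.93) and Maf less closely by Slc4a7 (0.81), Trerf1 (0.79) and 0610031J06Rik (0.78). Bcl6 was below the 5 CPM minimum in this experiment.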

How the data were processed

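Total RNA of double-sorted mouse T cells (purity over 95% per the labels) was made into cDNA with SMART-Seq kits and into Nextera XT libraries. Per the submitters' processing notes the tools were STAR, Subread featureCounts and limma with mm10, versions not given in the sources used here. The authors deposited raw counts per gene and log2 values for 90 libraries. The counts were used for all levels and the main tests, the deposited log2 values for limma alone.

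Genes with low counts were removed by filterByExpr, and counts were scaled by TMM and tested with edgeR (4.0.16, R 4.3.3) by quasi-likelihood with Benjamini-Hochberg adjustment over all genes tested. That test returns no standard error. The SE given with edgeR values is the absolute log2 fold change divided by the square root of the F statistic. The Treg fit held 30 libraries with group and batch. The CD8 fits held the libraries of 1 genotype or of 1 population with batch. The fit of DP minus NEG differences held the libraries of both populations with genotype within labelled set as block. Alternatives were DESeq2 (1.42.0), limma (3.58.1), DESeq2 size factors, no filter, another block and each replicate left out. Replicate numbers in the Treg labels name a batch: deviations of libraries of 1 batch had a median r of 0.093 over 135 pairs, against -0.078 for the other 270. CD8 libraries of 1 labelled set had medians of 0.198 in yfp, 0.092 in DKO and 0.121 in Ebi3L hosts, where replicate numbers only name libraries. The labels do not say what a set stands for. Named beside the 6 genes were, from each of 7 pathway lists, up to 2 genes called with the largest rise and up to 2 with the largest fall, and the 3 genes most correlated with each member. Some of these genes are not reported here. The members and lists were chosen with earlier results of these data known. A floor is 3 counts, and limits from counts cover counting error only. The code was tested on simulated data.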

Additional observations from a re-analysis of the deposited data

Results flagged for a closer look

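Prdm1 in NEG cells of DKO hosts stood at 24.2 CPM in library 4, while the other 3 libraries lay between 4.55 and 5.90 CPM. The gap to its nearest neighbour took most of the range of the group. The check covered the 6 genes in the 5 groups of 4 libraries, 30 in all, and this was the 1 it marked, while chance marks about 1 in 20. The same library source had the highest NDLN (14.4 CPM) and INT (62.6 CPM) values of Prdm1 in DKO hosts. In SP (48.1 CPM) and DP cells (155 CPM) it lay within the range of the other DKO libraries.

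The difference between IL10 and DN Tregs changed between lymph node and tumour, by an interaction term, for Prdm1 (-2.80), Maf (-2.98) and Batf (-1.17 on the log2 scale). The difference between Ebi3 and DN Tregs changed for Maf (-2.39) and Batf (-1.05). In each, the DN libraries of the tumour were above those of the lymph node.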

How the results depend on the processing

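Of 62 calls of members, 35 held under every alternative, 10 were lost only when a library or batch was left out and 17 under another setting. The counts of calls (Treg against Teff 3, subsets 23, sites 9, changes between sites 5, CD8 populations 8 in yfp, 7 in DKO and 7 in Ebi3L, genotypes 0, DP minus NEG differences 0) ranged with replicates left out from 3 to 4, 18 to 21, 7 to 8, 3 to 5, 4 to 7, 5 to 6, 2 to 7, 0 to 0 and 0 to 1. The upper end of the last of these ranges came from a fit that left 1 Il10 library in each population. Without the batch term the CD8 counts were 4 in yfp and 4 in Ebi3L hosts. Without the low-count filter there were 11 in Ebi3L hosts and 4 between genotypes, and with DESeq2 2 between genotypes. The cause was not tested. Without the replicate block (batch) the Treg counts were 3, 19, 8 and 4. With the labelled set as replicate block the CD8 counts were 8, 8 and 7, and 0 between genotypes. The Maf difference of Il10 from yfp hosts in INT cells turned from a positive value to -0.58 without Il10 replicate 2, whose library held 52.2 CPM, and was 2.25 without replicate 1. Without the ndLN Ebi3 library of high myeloid markers, an alternative chosen after seeing the data, the Treg counts were 3, 22, 8 and 5. Depth limited Bcl6 in DP cells, Prdm1 in NDLN cells and Maf in NDLN and NEG cells, where some libraries were near or below the floor of 3 counts. Prdm1 was at 0 in 4 CD8 libraries, all of NDLN cells. Maf in NEG cells was at 0.0425 CPM in a DKO library and at 0.124 CPM in an Il10 library.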
